A study of Mus musculus with 8 samples.

Results

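DDX5 is a DEAD-box RNA helicase, an enzyme that opens RNA duplexes and rearranges RNA-protein complexes. The RNA that it touches in the colon epithelium was read here from the complete list of peaks of 1 eCLIP (enhanced cross-linking and immunoprecipitation) experiment with an antibody sample named mAb, set against its size-matched input. Every row of that list was kept, which gave 16455 peaks of the 26879 in the colon and small intestine lists of the series. Each peak has a log2 fold, which is the number of CLIP reads over input reads after both were scaled to library depth, and a −log10 p for the same reads. A log2 fold of 1 is a 2-fold excess in the CLIP library and a log2 fold of 3 is an 8-fold excess. The peaks were assigned to GENCODE M21 genes on their own strand (build GRCm38), and 12 lay outside every gene. The others fell on 5250 genes.

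The labels give 1 CLIP sample and 1 input sample for mAb. Both came from the colon epithelium of C57BL/6 mice, released with EDTA, and the input sample was not immunoprecipitated. The genotype label of both reads wild type, while the growth protocol names 120-day-old Apcfl/+ CDX2Cre mice, a line with 1 floxed Apc allele and a Cre driven by the Cdx2 promoter of the intestinal epithelium. The study's methods describe younger wild-type animals, so the genotype and age of these mice are not settled. A further CLIP and input pair from the same tissue, with an antibody sample named rAb, carries the same antibody catalogue number, and what separates the antibody samples is not given in the labels. The name of each deposited list marks it as merged from replicates 1 and 2, and no value per replicate was at hand. There is therefore no replicate check. A deposited p compares the reads of 2 libraries and not conditions, and no test was added to it.

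In eCLIP, UV light links proteins to the RNA they touch, the protein is precipitated, and the RNA fragments that stay attached are sequenced. The input shows which fragments are abundant before precipitation, so a peak can be called in the CLIP library and still hold fewer reads there than in the input. DDX5 is known as a cofactor of transcription, of pre-mRNA splicing and of the Microprocessor that cuts primary microRNAs, and it also acts in the making of ribosomes. Small nucleolar RNAs guide the modification of ribosomal RNA, those of the C/D class methylation and those of the H/ACA class pseudouridylation. Small Cajal body RNAs do the same for the RNAs of the spliceosome. The 5S ribosomal RNA is the smallest RNA of the large ribosomal subunit and is copied from many near-identical genes.

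The RNAs with the fewest CLIP reads for their input reads were small RNAs of the nucleus. The sequences below are a small Cajal body RNA and an H/ACA small nucleolar RNA, shown because most of their length was depleted. They are given on GRCm38, 5′ to 3′ on the RNA strand, with the bases inside depleted peaks in capitals.
Scarna3b (chr12:80391613-80391751, - strand): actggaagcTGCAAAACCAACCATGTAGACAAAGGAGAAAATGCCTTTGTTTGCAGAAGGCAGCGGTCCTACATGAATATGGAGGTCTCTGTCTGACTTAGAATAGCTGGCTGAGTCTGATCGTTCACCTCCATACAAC
Snora73a (chr4:132352775-132352979, - strand): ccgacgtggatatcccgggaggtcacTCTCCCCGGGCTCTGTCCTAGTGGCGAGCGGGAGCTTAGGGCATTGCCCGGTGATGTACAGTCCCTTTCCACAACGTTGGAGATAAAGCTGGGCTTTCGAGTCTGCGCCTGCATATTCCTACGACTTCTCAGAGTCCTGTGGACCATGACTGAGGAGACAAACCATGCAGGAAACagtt
In both the first bases of the RNA lay outside the depleted peaks.

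Enriched peaks of messenger RNA genes and of the long non-coding RNA Neat1 are shown for the members on which the later paragraphs turn. All bases are inside the peak and in capitals. They are a coding exon of the complement gene C3, which the study followed, a coding exon of Senp2, both sites of Rpl5, the site of Neat1 with most reads and an intronic site of Krt8.
C3 (chr17:57210176-57210253, - strand): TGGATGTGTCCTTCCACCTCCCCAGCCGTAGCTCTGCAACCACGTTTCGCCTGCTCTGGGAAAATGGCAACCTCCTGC
Senp2 (chr16:22018337-22018428, + strand): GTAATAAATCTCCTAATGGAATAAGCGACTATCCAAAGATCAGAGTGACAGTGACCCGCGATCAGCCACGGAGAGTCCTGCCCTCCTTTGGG
Rpl5, upstream site (chr5:107903818-107903868, + strand): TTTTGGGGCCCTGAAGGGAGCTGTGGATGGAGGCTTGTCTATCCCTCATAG
Rpl5, downstream site (chr5:107904717-107904751, + strand): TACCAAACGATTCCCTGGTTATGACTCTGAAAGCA
Neat1 (chr19:5840811-5840913, - strand): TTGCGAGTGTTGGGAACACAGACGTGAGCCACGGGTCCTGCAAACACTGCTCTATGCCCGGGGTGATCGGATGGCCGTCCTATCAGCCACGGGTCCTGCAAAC
Krt8 (chr15:102003299-102003385, - strand): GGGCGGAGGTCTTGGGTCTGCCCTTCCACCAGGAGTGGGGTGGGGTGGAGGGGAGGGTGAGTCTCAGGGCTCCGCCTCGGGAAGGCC

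An enriched peak on a microRNA precursor is shown for Mir27a, whose hairpin is given with the peak in capitals, followed by the mature arms of RefSeq with the seed (bases 2 to 8) in capitals.
Mir27a (chr8:84208672-84208758, + strand): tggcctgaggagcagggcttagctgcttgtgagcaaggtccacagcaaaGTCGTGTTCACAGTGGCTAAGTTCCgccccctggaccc
mmu-miR-27a-5p (chr8:84208685-84208706, + strand): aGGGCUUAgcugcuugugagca
mmu-miR-27a-3p (chr8:84208727-84208747, + strand): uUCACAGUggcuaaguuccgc
The peak began a few bases upstream of mmu-miR-27a-3p and ended just before its last bases. It held 12 CLIP reads and 2 input reads (log2 fold 3.15, −log10 p 3.17), which is near the cutoff of 3 for both values. It overlapped no peak of the rAb list.

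Over the whole list the median log2 fold was 1.15, with quartiles of 0.56 and 2.15 and a range from −4.20 to 7.07. A total of 2644 peaks (16.1%) had a log2 fold below 0. The cutoff of the study, at least 3 for both −log10 p and log2 fold, left 201 enriched sites on 138 genes, which is 1.22% of the peaks and 2.63% of the genes. The −log10 p of the list reached its cap of 400 in 35 peaks. It was 0 for every peak with a log2 fold below 0, so the deposited p called no peak depleted. Depletion was therefore read from the reads themselves, by a rule set after the values were seen. A peak was called depleted when its log2 fold was at most −1 and the 95% interval of that fold lay below 0, which gave 317 peaks (1.93%) on 200 genes (3.81%). Of 704 peaks at or below −1, the others had an interval that reached 0 on the lowest read numbers that give their fold.

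The reads behind a peak could be recovered from the pair of fold and p. They were recovered for 12912 of 13011 peaks with a p above 0 and below the cap. For the other peaks, which include all depleted peaks and those at the cap, the reads given here are the lowest whole numbers that give the deposited fold, so the true number can be a multiple of them and the interval of the fold is at its widest. By these ratios the input was sequenced 1.48 times as deeply as the CLIP sample. Most peaks rested on few reads: 4241 peaks shared a log2 fold of 2.15, which is 3 CLIP reads over 1 input read. No peak had 0 input reads, so an input of 1 read may stand for 0 or 1 read. The median enriched site held 19 reads in both libraries together, and 91 of 201 enriched sites (45.3%) had 1 input read. The median depleted peak held 82 reads. All 95% intervals are exact binomial intervals that cover counting error only, and PCR copies or overlapping peaks of a gene are not independent molecules.

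Enriched and depleted peaks lay in different parts of genes. Introns held 95 enriched sites (47.3%, 95% interval 40.2–54.4) and 10 depleted peaks (3.15%, 1.52–5.72), beside 4123 of all peaks (25.1%). Coding sequence held 47 enriched sites (23.4%, 17.7–29.9) and 114 depleted peaks (36.0%, 30.7–41.5), beside 8195 of all peaks (49.8%). At the same cutoff the study reported as many colonic sites and transcripts as the enriched sites and genes counted here. It placed a larger share of these sites in coding regions. Its rule for a peak that overlaps several regions was not given. Coding sequence had first priority here, so no other order of regions on this annotation gives a larger coding share. The source of the difference was not tested. Exons of non-coding transcripts took 40 enriched sites (19.9%) and 186 depleted peaks (58.7%), beside 983 of all peaks (5.97%). The 3′ UTR was listed often, with 1992 peaks (12.1%), but held 5 enriched sites (2.49%) and 1 depleted peak. The 5′ UTR held 14 enriched sites (6.97%), the share it had of all peaks (6.99%). In the rAb list introns held 38 of 182 enriched sites (20.9%, 15.2–27.5), beside 15.7% of all its peaks, and coding sequence held 84 (46.2%, 38.8–53.7), beside 55.5%. The difference between the lists was not tested.

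**Figure D1:**
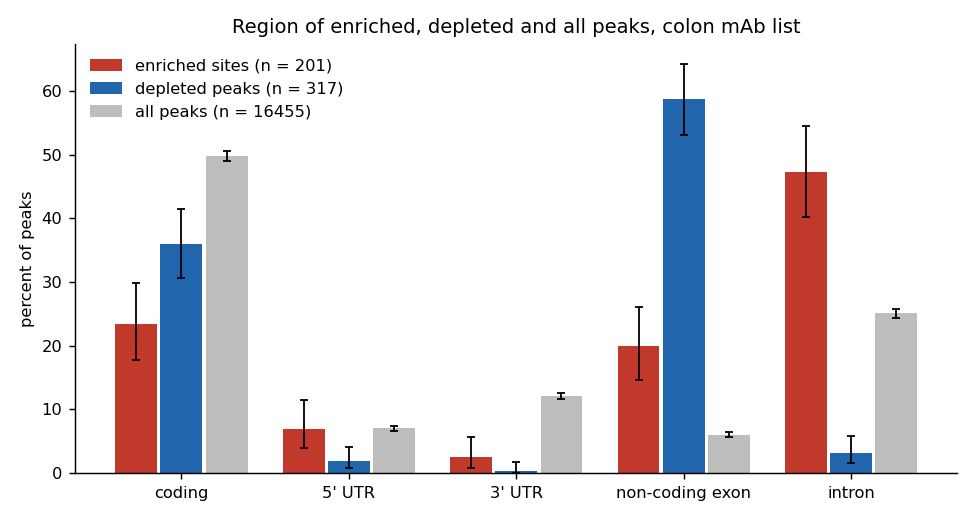
Percent of enriched sites (n = 201), depleted peaks (n = 317) and all peaks (n = 16455) of the colon mAb list that fall in each part of a gene, with exact 95% binomial intervals as bars. Introns hold 47.3% of enriched sites and 3.15% of depleted peaks, while non-coding exons hold 58.7% of depleted peaks.

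The classes of RNA separated along the fold. Peaks in introns of protein-coding genes had a median log2 fold of 2.15 (n = 3997), those in 5′ UTRs and in 3′ UTRs 1.15, and those in coding sequence 0.98 (n = 8162). Both quartiles in introns were also 2.15, the fold of 3 CLIP reads over 1 input read. The intronic median thus rests on peaks with the fewest reads, and how far it reflects the lowest input count was not tested. The median was 0.46 for C/D small nucleolar RNAs (n = 145), −1.10 for H/ACA small nucleolar RNAs (n = 204), −0.82 for small Cajal body RNAs (n = 33), −2.34 for transfer RNAs (n = 11) and −2.99 for U5 (n = 7). Since a peak must be called in the CLIP library, RNAs that were depleted and rare may be missing from the list, and a class is described only by its listed peaks.

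**Figure D2:**
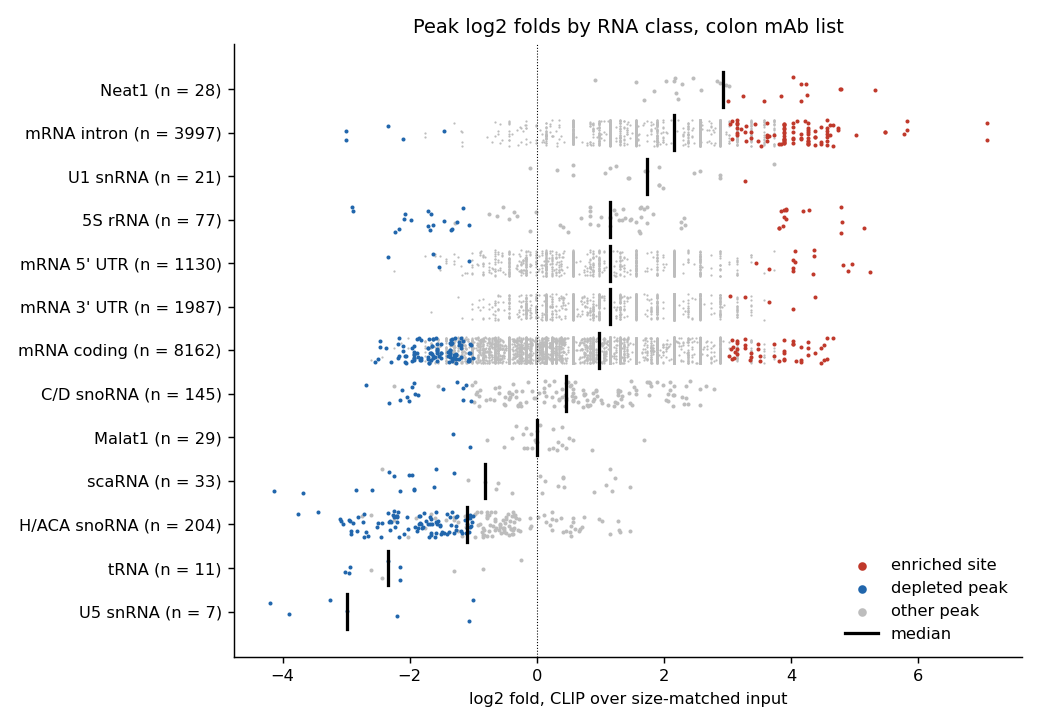
Deposited log2 fold of CLIP over size-matched input for each peak of the colon mAb list (points), grouped by RNA class, with the class median as a black bar, enriched sites in red and depleted peaks in blue. All 7 U5 peaks are depleted, while all 28 Neat1 peaks lie above 0.

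U5 is the spliceosomal RNA that holds the exon ends during splicing. All 7 U5 genes with a peak had 1 peak each and each was depleted. Gm25313 had the lowest fold of the list, −4.20 (95% interval −4.73 to −3.70), with 34 CLIP and 921 input reads. Rnu5g had −3.90 (21 and 463 reads), Gm24871 −3.25 (49 and 691 reads) and Gm22265 −2.99 (17 and 200 reads). Gm25099 had −2.21 (106 and 723 reads). Gm23287 was nearer to the cutoff, at −1.07 (10 and 31 reads), and Gm23143 lay at it (28 and 83 reads). The U5 genes are copies of one another, so that reads may be divided among them in ways the list does not show. In the rAb list the same 7 genes were listed, 6 of them depleted, with a median of −2.56.

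The other spliceosomal RNAs did not share this level. U1, which pairs with the 5′ splice site, had 21 peaks on 15 genes with a median of 1.73, none of them depleted. Gm24046, a U1 gene, was enriched with a log2 fold of 3.26 (13 and 2 reads). U2, which pairs with the branch point, had 5 peaks with a median of 0.56 and none called. U6atac, of the minor spliceosome, had 2 peaks, both depleted, with a median of −1.48. U11 and U12, of the same spliceosome, had medians of −0.13 (n = 5) and 0.37 (n = 4), with none called. U7, which acts on histone messages, had a median of −0.15.

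No small nucleolar RNA had an enriched site in the mAb list. Of the H/ACA class, 95 of 204 peaks were depleted, on 59 of 98 genes, and 85 of the 98 genes had a median below 0. Of the C/D class, 16 of 145 peaks were depleted, on 16 of 112 genes, and 45 genes had a median below 0. Over genes, the median was −1.10 for H/ACA and 0.34 for C/D, a difference of −1.44 on the log2 scale, which was −1.39 among peaks with at least 20 reads and −1.41 in the rAb list. This comparison of the classes was made after their values had been seen. The levels themselves differed between the lists. In the rAb list 9 C/D peaks on 5 genes were enriched, and the H/ACA peaks had a median of −0.20 with 37 of 168 depleted. In the CLIP library the median peak held 23 reads in the H/ACA class and 32 in the C/D class. In the input the medians were 78 and 33 reads.

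Some H/ACA RNAs were depleted in every listed peak. Snora73a, printed above, had peaks at −2.93 (73 and 825 reads) and −3.05 (47 and 575 reads), and its neighbour Snora73b had −3.09 (74 and 933 reads) and −2.03. Snora33 had −3.45 (9 and 145 reads). All 5 peaks of Snora3 were depleted, from −2.44 to −1.82, as were all 4 of Snora16a, Snora17, Snora20 and Snora44. Snora74a went the other way, with 4 peaks from 0.59 to 1.30 and up to 698 CLIP and 419 input reads. In the C/D class Snord118, also called U8, had 0.93 and 1.23 on 677 and 646 CLIP reads.

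The small Cajal body RNAs, many of which combine both box types, had 14 of 33 peaks depleted, on 10 of 18 genes. Scarna3b had −4.13 (95% interval −5.60 to −2.97) on 6 CLIP and 155 input reads, Gm25820 −3.68 (28 and 531 reads) and Scarna3a −2.84 (21 and 223 reads). Scarna10 had 4 of 5 peaks depleted, from −2.32 to −1.30, and a single peak above 0 at 1.15.

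Further short RNAs of RNA polymerase III and the ribonuclease RNAs lay below 0. Rny3, a Y RNA that binds the Ro60 protein, had −2.18 (95% interval −2.79 to −1.61). Vaultrc5, the RNA of the vault particle, had 4 of 5 peaks depleted, from −2.17 to −1.04, on at least 1123 CLIP reads each. Rmrp, the RNA of RNase MRP, which cuts pre-ribosomal RNA, had 3 depleted peaks at −1.62, −1.21 and −1.16, the last on 3409 CLIP and 11262 input reads. Of 11 transfer RNA peaks, 6 were depleted on 4 annotated genes, among them −3.02 and −2.94 at Gm17494 and −2.16 at both peaks of Fmc1. The 7SK RNA, which holds the elongation factor P-TEFb, had 1 peak at −0.24 on 1193 CLIP reads and was not called. The 7SL RNA of the signal recognition particle had 6 peaks with a median of 1.08, none called.

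The 5S ribosomal RNA genes held enriched sites of more than 1000 CLIP reads and also depleted peaks. On 43 annotated 5S genes there were 75 peaks, 15 of them enriched on 7 genes and 17 depleted on 14 genes. The place on the RNA separated them. The boundary after base 45 was chosen after the values were seen. Of 47 peaks that ended by base 45, 15 were enriched and 1 was depleted, with a median log2 fold of 1.63. Of 12 peaks that began at base 46 or later, none was enriched and 8 were depleted, with a median of −1.41. The 16 peaks that crossed the boundary had no enriched site, 8 depleted peaks and a median of −0.91.

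The gene n-R5s2 had 3 peaks that covered bases 1 to 44, with log2 folds of 4.79, 4.78 and 4.78 on at least 1373 CLIP and 74 input reads. The 5 peaks of Gm23806 over bases 1 to 44 had 3.84 to 4.18, and its next peaks, from base 47, had 0.83. The highest of the class was n-R5s158, bases 1 to 44, at 5.15 (95% interval 3.54 to 7.46; 72 and 3 reads). Bases 1 to 44 of n-R5s175 had 4.28 (131 and 10 reads), and the peaks of n-R5s7, n-R5s89 and n-R5s28 had 3.80 to 3.91. At n-R5s33 the fold fell along the RNA, from 1.21 up to base 26, through −1.67 over bases 27 to 55, to −2.08 from base 56 (57 and 356 reads). Bases 64 to 115 of n-R5s194 had −2.91 (95 and 1056 reads). These genes are near-identical, so the gene to which a read was placed is uncertain.

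**Figure D3:**
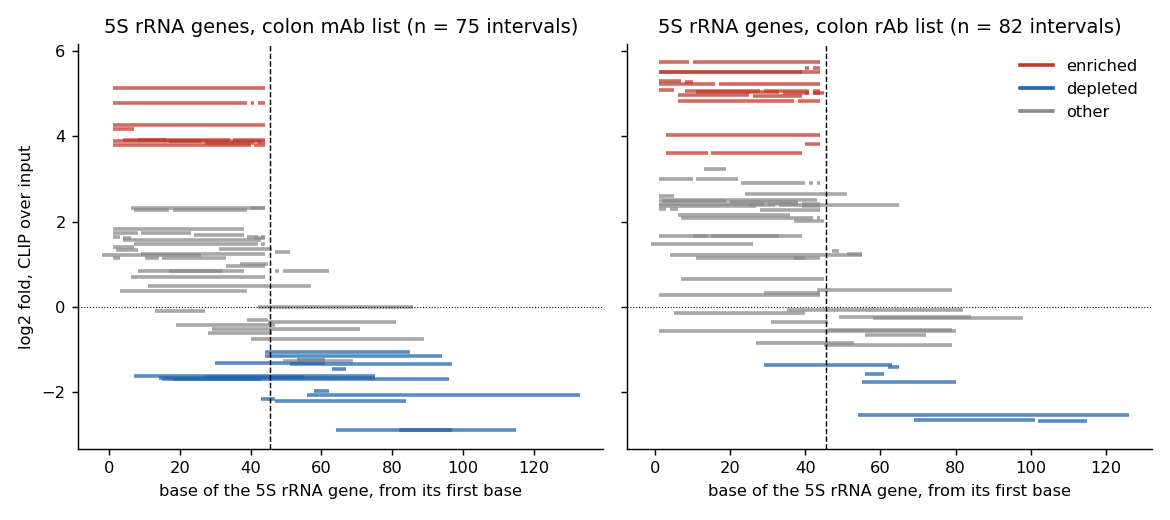
Log2 fold of CLIP over input for each peak on a 5S ribosomal RNA gene, drawn as a line over the bases it covers, in the mAb list (left, n = 75) and the rAb list (right, n = 82); the dashed line follows base 45. In both lists the enriched peaks (red) end by base 45, and no peak that begins later is enriched.

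The rAb list held the same order. There, of 60 peaks on 28 genes that ended by base 45, 27 were enriched and none was depleted (median 2.95), and of 12 that began later, none was enriched and 6 were depleted (median −1.05). Some other enriched sites of the mAb list matched a ribosomal RNA in sequence. All 5 sites of Slc22a22, an organic anion transporter, lay in 1 stretch of an intron, were at the cap, had folds from 3.52 to 3.62 and matched ribosomal RNA. The site of Map7d2 at 3.43 (102 and 14 reads) lay just upstream of Gm23806, which sits in its intron. In all, 21 enriched sites and 19 depleted peaks matched ribosomal RNA. Of the long non-coding RNA gene Gm26917, 14 of 55 peaks were depleted, from −2.10 to −1.01, and none was enriched.

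Most enriched sites on messenger RNA genes lay in introns. Of 3997 intronic peaks of protein-coding genes, 91 were enriched, on 64 genes, and 5 were depleted. Of the 89 enriched intronic sites that could be placed along a transcript, 52 (58.4%, 95% interval 47.5–68.8) were in the first intron, against 1593 of 3788 intronic peaks (42.1%). Within 1000 bases of the transcript start lay 31 of the 89 (34.8%, 25.04–45.7) against 409 of the 3788 (10.8%). Both the first intron and the distance of 1000 bases were chosen after the values were seen.

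Pdlim5, an actinin-binding scaffold, had intronic sites at 5.02 (22 and 1 reads) and 3.47. Acsl3, an acyl-CoA synthetase, had 4.61 and 3.37, and Errfi1, an inhibitor of the EGF receptor, had 4.61 (33 and 2 reads). Atf3, a stress-induced transcription factor, had 4.65 (17 and 1 reads), Azin1, an activator of polyamine synthesis, 4.65, and Capzb, the actin capping protein, 4.56. Hnrnpa3, a splicing factor, had 4.37 and Ywhaz, a 14-3-3 protein, 4.15. Muc2, the main gel-forming mucin of the colon, had 4.02 on 11 CLIP reads and 1 input read, which is near the cutoff in reads, and Dmbt1, an epithelial defence protein, had 3.89. Nfe2l2, the antioxidant regulator NRF2, and Cyp2c55, a colonic cytochrome P450, had 3.15, and Shroom3, an actin-binding protein of apical constriction that the study named, had 3.37 (14 and 2 reads). Among the genes of this paragraph, the sites of Hnrnpa3 and Nfe2l2 overlapped a rAb peak, at 2.39 and 2.24 there and not enriched, and those of the others overlapped none.

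Within a gene, introns and coding exons differed in the same way. Of 121 genes with at least 3 coding and at least 3 intronic peaks, the intronic median was the higher in 96 (79.3%) and the lower in 14. This count was made after the pattern had been seen in single genes. Intronic peaks had fewer input reads, a median of 1 against 3 in coding sequence. Among peaks with at least 20 reads in both libraries together the median log2 fold was 1.98 in introns (n = 119) and −0.08 in coding sequence (n = 668). The part of these low input reads in the difference was not tested.

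Krt8, a keratin of simple epithelia, had 5 intronic peaks from 2.89 to 3.89, of which 4 were enriched, and 12 coding peaks from −1.55 to 0.73, of which 2 were depleted. The intronic and coding peaks did not overlap in fold. Actb, the cytoplasmic β-actin, had intronic peaks at 2.60 and 3.81 (19 and 2 reads) and 7 coding peaks from −1.89 to −0.56, of which 3 were depleted. Atf3 had 11 intronic peaks from 2.15 to 4.65 and 5 coding peaks from 0.83 to 2.56, so that here both lay above 0. In Ctnnb1, which encodes β-catenin of the Wnt pathway and of cell junctions, the enriched site was in the 5′ UTR at 5.24 (51 and 2 reads), the 3 intronic peaks had 1.15 to 2.56, and the 13 coding peaks −1.70 to 0.56 with 1 depleted. The rAb list had no intronic peak at Krt8 or Actb, and its coding peaks there ran from −1.84 to 1.07 and from −1.26 to 0.58.

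**Figure D4:**
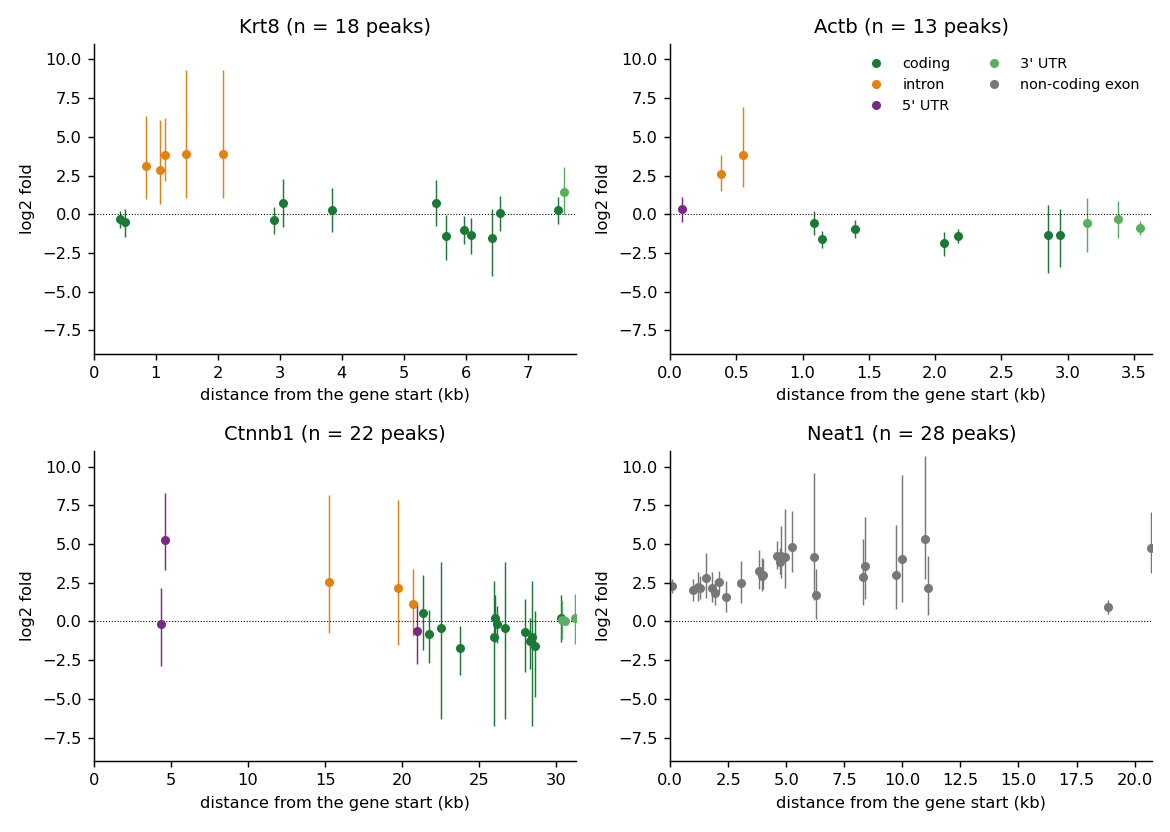
Log2 fold of each mAb peak (points, with the 95% interval of counting error) along Krt8, Actb, Ctnnb1 and Neat1, against the distance from the gene start in kb, coloured by part of the gene. The intronic peaks of Krt8 lie at 2.89 to 3.89 and its coding peaks at −1.55 to 0.73, while all Neat1 peaks lie above 0.

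Among long non-coding RNAs of the nucleus, Neat1 and Malat1 lay apart. Neat1, the scaffold of paraspeckles, had 28 peaks, 12 of them enriched, with a median of 2.93 and a range from 0.92 to 5.32. Its sequence shown above held 154 CLIP and 12 input reads (4.25, 95% interval 3.40 to 5.23), and the highest site had 5.32 on 27 reads and 1 read. One of its enriched sites, at 4.76, lay near the 3′ end, and the other 11 lay further towards the 5′ end. Malat1, which marks nuclear speckles, had 29 peaks with a median of 0.00 and a range from −1.33 to 1.68, of which 2 were depleted and none was enriched. In the mAb list all peaks together had a median of 1.15. In the rAb list Neat1 had 19 peaks, all above 0, and none was enriched. Their median of 1.65 lay below the 2.24 of all rAb peaks, so Neat1 did not stand above the list there. Dancr, a host of small nucleolar RNAs, had 5 of 6 peaks depleted, from −1.62 to −1.10.

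Coding sequence held 47 enriched sites on 37 genes. Senp2, a SUMO protease, had 4.65 (95% interval 1.98 to 10.04; 17 and 1 reads) and 3.89, and Sumo3 had 3.50 (23 and 3 reads). Cnot8, a deadenylase of the CCR4-NOT complex, had 4.56 and 4.26. C3, the central component of complement, had 4.47 (1.77 to 9.87; 15 and 1 reads), which was the only peak of that gene. Becn1, an autophagy factor, had 4.37 and 4.15, Usp8, a deubiquitinase of endosomes, 4.26, and Xpo6, the nuclear exporter of actin, 3 sites from 3.26 to 4.26. The peaks of Becn1 lay close together, as did a pair of those of Xpo6, and such peaks are not independent sites. Rpl5, a ribosomal protein that binds the 5S RNA, had 3.73 at both of the sites printed above (18 and 2 reads each). Its other 3 peaks lay below 0, at −0.85 or higher.

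Members with more reads had lower folds. Myh9, the heavy chain of non-muscle myosin, had 3.81 (95% interval 2.34 to 5.76; 38 and 4 reads) in coding sequence and 3.26 in the 3′ UTR, out of 60 peaks. Cxadr, a tight junction receptor, had 3 sites at 3.51, 3.35 and 3.09 with 52 to 55 CLIP reads. Rnf43, which removes Wnt receptors from the surface, had 3.26 (26 and 4 reads). Ahcyl1, an IP3 receptor regulator that the study named, had 3.47 (15 and 2 reads) in 1 of 7 peaks. Mgam, a brush border glucosidase, and Plec, a cytolinker, had 3.37, Myo10 had 4.15, and Phgr1, Tmod3 and Myo1e had 3.15. In UTRs, Kctd20 had 4.96, Zfhx3 4.81 and Ptp4a1 4.02 in the 5′ UTR, and B4galt4 4.37, Mcl1, an inhibitor of apoptosis, 4.02 and Btg2, an antiproliferative factor, 3.65 in the 3′ UTR.

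Depleted coding peaks numbered 105 on 67 protein-coding genes and were spread over abundant messages. Eef1a1, the elongation factor that brings transfer RNA to the ribosome, had 5 of 16 peaks depleted, from −2.19 to −1.06. Epcam, the adhesion molecule that marks epithelial cells, had 6 of 17 depleted, from −2.47 to −1.04 and 1 of them in the 5′ UTR, and Hnrnpa2b1, a splicing factor, had 5 of 15, the lowest at −2.06. Ppia, a prolyl isomerase, had −2.55 (95% interval −4.92 to −0.85; 3 and 26 reads), Ubb, a ubiquitin precursor, −2.50 and Aldoa, an enzyme of glycolysis, −2.37. Cd74, the invariant chain of class II antigen presentation, had 5 depleted peaks, the class I genes H2-K1 and H2-D1 had 3 each, and B2m, their light chain, had 1 at −1.64. The immunoglobulin gene Igha had 8 of 9 peaks depleted, from −1.84 to −1.03, and the ninth at −0.88. Col1a1, a collagen of fibroblasts, had 4 of 34 peaks depleted.

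By gene, 1973 genes had at least 3 peaks, and the median over these of the gene's median log2 fold was 1.22. Of them, 220 had a median below 0 and 14 a median of at least 3. The highest medians among genes with at least 5 peaks were those of Gm23806 (3.86), Slc22a22 (3.62), Fosb (3.03), Neat1 (2.93), Becn1, Atf3, Zswim6 and Nfe2l2 (2.89 each), Lars2 (2.74) and Klf6 (2.73). The lowest, after the small RNAs, were Igha (−1.53), Cd74 (−1.44), Dancr (−1.29), Pfn1 (−1.20), Txn1 (−1.17), Rps25 (−1.14) and Mmp7 (−1.11).

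The housekeeping lists lay below the median of all genes. The medians of gene lists given from here on are over the members with at least 3 peaks, unless all listed members are named, and all genes had 1.22 on the first measure and 1.56 on the second. Of 79 cytosolic ribosomal protein genes, 63 had a peak, and 44 of these 63 had a median below 0. The median was −0.27. Rpl5 was the member with enriched sites, and 8 had depleted peaks: Rpl13a at −1.70, Rpl41 at −1.67 and −1.29, Rps19, Rps9, Rpl8, Rps18, Rps15 and Rpl32. The depleted peaks of Rpl32 overlap an H/ACA small nucleolar RNA. Of 89 nuclear genes of oxidative phosphorylation, 42 had a peak and 27 of these had a median below 0. The list median was −0.40 over 14 genes and −0.21 over all 42 listed members, none was enriched and 5 had a depleted peak, among them Atp5b at −2.30 and Uqcr11 at −2.10. Heat shock and ER chaperones had a median of −0.01, with none of 15 enriched and 4 with a depleted peak (Hsp90ab1, Hsp90b1, Pdia3 and P4hb). The SR and hnRNP splicing proteins were all listed, 37 of 37, with a median of 0.25, 1 enriched (Hnrnpa3) and 2 with depleted peaks (Hnrnpa2b1 and Hnrnpk). Translation factors had a median of 0.44, none of 17 enriched and 3 with depleted peaks.

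The lists of this paragraph, which are of mixed function, lay nearer to the median of all genes or above it. Myosins had a median of 1.79, with 3 of 20 enriched (Myh9, Myo10 and Myo1e) and 1 with a depleted peak (Myl12b at −1.57). Genes of colonocyte transport and differentiation had 1.56, with 2 of 25 enriched and none depleted. Solute carriers had 1.56 as well, with 82 of 371 listed and 1 enriched, Slc22a22, which matched ribosomal RNA. Wnt and crypt genes had 1.15, with 2 of 23 enriched (Ctnnb1 and Rnf43) and a depleted peak in Ctnnb1. Cell junction genes had 0.89, with 2 of 24 enriched (Ctnnb1 and Cxadr) and 2 with a depleted peak (Ctnnb1 and Epcam). Ubiquitin and SUMO genes had 1.06, with 2 of 14 enriched (Sumo3 and Ubr4) and Ubb depleted. Mucus genes had 1.03, with 1 of 13 enriched (Muc2). Complement and defence genes had 0.85, with 2 of 13 enriched (C3 and Dmbt1). Keratin, actin and brush border genes had 0.95, with 3 of 24 enriched (Krt8, Actb and Plec) and 4 with a depleted peak. Immediate-early genes had 0.90, or 1.48 over all 19 listed members, with 3 of 19 enriched (Atf3, Btg2 and Fosb). Over all genes with a peak, 2.63% had an enriched site and 3.81% a depleted peak, and with so few called members nothing particular to a list is drawn from these counts.

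The partners of DDX5 gave no called peak. Of 15 genes of the Microprocessor and DDX5 partners 10 were listed, with a median of 1.02 and none enriched or depleted, and of 56 DEAD-box and DEAH-box helicase genes 27 were listed, with a median of 1.15 and none called. Ddx5 itself had 14 peaks from −0.88 to 1.89, with a median of 0.51, and none was called. Of 11 microRNA precursors with a peak by RNA class, 2 were enriched, Mir27a and Gm24270, the latter at 3.43 on at least 599 CLIP reads, and none was depleted. In the planned list of microRNA genes, taken by name, 2 of 11 had a depleted peak, Mir1839 at −1.93 and Mir3068 at −2.03. The peak of Mir1839 was annotated as a small Cajal body RNA and that of Mir3068 as a small nucleolar RNA.

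The marker genes of the tissue were those of colon epithelium with some of the stroma. All 10 epithelial markers and 9 of 10 colonic markers had a peak, against 1 of 12 of small intestine enterocytes, none of 7 of endothelium and none of 9 of enteric neurons and glia. Of fibroblast markers 6 of 10 were listed, with 97 peaks and a median log2 fold of −0.66. Of leukocyte markers 3 of 16 were listed, with 2 depleted peaks in Jchain. Median folds were 0.27 for epithelial and 1.56 for colonic markers. The depleted peaks of Col1a1, Col3a1, Igha and Jchain are thus on genes of other cell types, and their part in the depleted set was not tested. In such bulk samples fewer cells of a type and less RNA per cell cannot be told apart in the reads of a gene.

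The rAb list, from a separate CLIP and input pair, was used to see which calls were listed again. It held 9146 peaks with a median log2 fold of 2.24, of which 182 (1.99%) were enriched and 106 (1.16%) depleted by the same rules. Of the 201 enriched mAb sites, 61.2% overlapped a rAb peak by at least 1 base and 76 (37.8%, 95% interval 31.1–44.9), on 48 of 138 genes, overlapped an enriched one. None of the overlapping rAb peaks had a fold below 0. Of the 317 depleted peaks, 233 (73.5%) overlapped a rAb peak, 206 of these with a fold below 0, and 93 (29.3%, 24.4–34.7), on 66 of 200 genes, overlapped a depleted one. None overlapped an enriched one. Of all mAb peaks, 18.2% overlapped a rAb peak, 1.10% an enriched one and 0.699% a depleted one. No test was made between the lists.

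**Figure D5:**
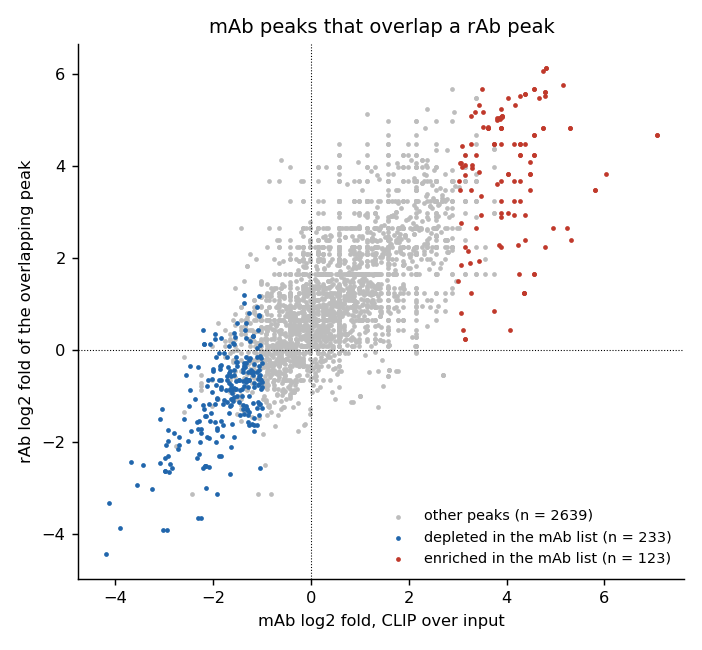
Log2 fold of each mAb peak that overlaps a rAb peak (horizontal axis) against the fold of that rAb peak (vertical axis), with enriched mAb sites and depleted mAb peaks coloured. All enriched sites that overlap a rAb peak have a rAb fold above 0, and 206 of 233 depleted peaks have a rAb fold below 0.

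By class, all 15 enriched 5S sites were enriched again, with a rAb median of 5.24. In coding sequence 43 of 47 enriched sites overlapped a rAb peak and 26 (55.3% of the 47) were enriched again. In introns of protein-coding genes 48 of 91 enriched sites overlapped no rAb peak, and 27 (29.7% of the 91) were enriched again. The site of C3 had 4.07 (16 and 3 reads) in the rAb list, that of Senp2 5.46 (14 and 1 reads), those of Rpl5 4.46 (14 and 2 reads), those of Cxadr 4.42 to 5.16, that of Rnf43 5.07, that of Sumo3 5.65 and that of Myh9 3.61. Becn1 had 2.92, Ahcyl1 2.98 and Ctnnb1 2.65, which were above 0 but not called. Pnck had 4.36 and 1.23, and Gm24270 had 3.43 and 1.92.

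Among depleted peaks, 36 of 75 in H/ACA RNAs, 6 of 7 in U5, 8 of 13 in small Cajal body RNAs, 7 of 10 in 5S genes, 4 of 5 in transfer RNAs, all 4 in the vault RNA, all 3 in Rmrp and 6 of 15 in C/D RNAs were depleted again. Gm25313 had −4.45 (16 and 1101 reads), Rnu5g −3.88 (11 and 508 reads), Scarna3b −3.33 (4 and 127 reads) and Snora33 −2.50. In coding sequence 9 of 71 were depleted again, with a rAb median of −0.55 beside a mAb median of −1.51. The C/D medians were −0.81 and −1.92, and those of H/ACA −1.14 and −1.68. Over all mAb peaks that overlap a rAb peak the rAb folds lay higher (median 1.07 beside 0.49), and the cutoff of −1 was the same in both lists. At Eef1a1 the rAb folds were −0.75 to 0.12 and at Epcam −0.88 to 0.11, and none was depleted. Actb kept 1 depleted peak at −1.20. Igha had 1 of 7 depleted again.

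A set of short enriched peaks shared stretches of sequence with one another. When enriched peaks within 10 bases were joined, 158 loci remained. Of these, 42 were at most 30 bases wide, all outside the 5S genes, and 22 of them (52.4%) had no other peak in the gene. Of 116 wider loci, which include those on 5S genes, 27 (23.3%) had no other peak in the gene. The width limit was chosen after the loci had been seen. Of the 42, 14 fell into 5 groups whose members hold an identical run of at least 10 bases inside the peak. The members of 4 groups are printed below with the shared run in capitals, since the runs are what the groups have in common.
Cdk5r2 (chr1:74855010-74855032, + strand): ccccacCGCCGGGTCCCCcgggg
Rhbdf1 (chr11:32221925-32221953, - strand): CGCCGGGTCCCCggggacaggagtccggg
Arid4a (chr12:71016604-71016628, + strand): ctccccCGCCGGGTCCCCccgcgcc
4930438A08Rik (chr11:58284298-58284323, + strand): tgGCTCTTCCGATCTttccacacccc
Ak7 (chr12:105747366-105747390, + strand): aGCTCTTCCGATCTggttctaaaat
Trappc9 (chr15:72907128-72907153, - strand): aGCTCTTCCGATCTcagaggacagcg
Mrpl3 (chr9:105064805-105064828, + strand): GCTCTTCCGATCTtagagaagtta
Inf2 (chr12:112604146-112604170, + strand): aaaacaCTACTACTCCCACaactaa
Atl3 (chr19:7515317-7515336, + strand): tgccttCTACTACTCCCACt
Ntng1 (chr3:110008193-110008213, - strand): tTCCCGCGCGTGtgagcagaa
1190005I06Rik (chr8:120633906-120633930, - strand): cgggcgggggcgtgTCCCGCGCGTG
The run of Ak7, Trappc9, Mrpl3 and 4930438A08Rik is identical to the end of an Illumina sequencing adapter. Of 6 windows of 100 bases around mAb peaks that hold it, all 6 were enriched, with log2 folds from 4.26 to 6.02 on 26 to 53 CLIP reads. The run of Cdk5r2, Rhbdf1 and Arid4a was held by 8 windows on 5 genes, 6 of them enriched. That of Inf2 and Atl3 was held by 3 windows, all enriched, and that of Ntng1 and 1190005I06Rik by 5 windows, 4 of them enriched. The part of primer or adapter sequence in these loci was not tested. The site of Inf2, a formin, counts among the coding sites above.

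The base composition of 100-base windows differed little between called and all peaks. The median GC content was 55% around enriched sites, 53% around depleted peaks and 54% around all peaks. Enriched intronic sites had a median of 57% with an upper quartile of 76%, against 51% and 57% for all intronic peaks of protein-coding genes. The motif GGGG on the RNA strand was in 45.8% of enriched windows (95% interval 38.7–52.9), 31.2% of depleted windows (26.2–36.6) and 37.1% of all windows. In coding sequence alone it was in 23.4% of enriched, 35.2% of depleted and 31.3% of all windows. The motif GAAGAA, searched in the same way, was in 5.97%, 8.20% and 6.94%, and GTGTGT in 5.97%, 5.36% and 7.36%. Both strands were searched, and on the opposite strand GGGG was in 31.8%, 25.2% and 29.99%. A match describes the letters of the window and is not a binding site.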

How the data were processed

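RNA bound to DDX5 was measured by single-end eCLIP in 1 CLIP and 1 size-matched input sample of colon epithelium. The submitters' processing notes name cutadapt 1.9.1, STAR 2.4.0i, SAMtools 1.4.1 and mm10, without their settings, and the authors called peaks on the CLIP sample with CLIPper. How reads that fit several places were treated is not given in the sources used here. The deposited values are a log2 fold of depth-normalised CLIP over input reads and a −log10 p, capped at 400. Replicates 1 and 2 are marked as merged. No library totals were used, so depth is known only as the ratio of the libraries. Another peak list, which no sample label names, was left out.

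Peaks were assigned to GENCODE M21 genes by any overlap on their strand, with priority to coding sequence, 5′ UTR, 3′ UTR, non-coding exon, intron within 500 bases of an exon and other intron. Classes of small RNA came from RefSeq names, and 2 peaks of the 5S class were placed by RefSeq alone. Enriched sites had −log10 p and log2 fold of at least 3. The fold and p of each peak were matched to a pair of read numbers, by Fisher's exact or Yates' chi-square test with a tolerance of 1% on −log10 p. Where none matched, the lowest terms of the ratio were kept. Intervals are exact 95% binomial intervals. The fold of a gene is the median of its peaks. Ribosomal matches needed 20 bases at 90% identity to 66 sequences (BLAST+ 2.17.0+). Python 3.11.15, pandas 2.3.3, numpy 2.4.6, scipy 1.17.1, pysam 0.24.0, bedtools 2.31.1, samtools 1.23.1 and matplotlib 3.10.9 were used. Read tracing was tested on simulated data.

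The planned depletion rule needed a −log10 p of at least 3. It could not call any peak, because the deposited p is 0 below a log2 fold of 0, and the interval rule replaced it after the values were seen. Genes were named by rule: the 12 highest by −log10 p and by fold of an enriched site, those with at least 3 sites, the 12 lowest and the 12 most often depleted, the 10 lowest and 10 highest gene medians with at least 5 peaks, genes with both calls, C3, Ahcyl1, Shroom3 and Ddx5, up to 4 called members of each list, and the 10 highest sites repeated in the rAb list. Since the p of depleted peaks is 0, the lowest folds stood in for it. Further genes were named after their values were seen. The members, gene lists and tests were chosen with earlier results of these data known.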

Additional observations from a re-analysis of the deposited data

Results flagged for a closer look

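For 7 depleted mAb peaks the overlapping rAb peak had a log2 fold whose 95% interval lay above 0. The difference between the lists was not tested. In 6 of them the peak lay on an H/ACA small nucleolar RNA. Gm23297 had −1.10 in the mAb list against 0.93 in the rAb list at 1 peak and −1.06 against 1.16 at another. Gm22422 had −1.27 against 0.81, Snora65 −1.35 against 0.44 and Gm22270 −1.37 against 1.01. The peak of Rpl32, which overlaps an H/ACA RNA, had −1.07 against 0.74. The coding peak of Rack1, a ribosomal scaffold protein, had −1.37 on 6 and 23 reads against 1.18.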

How the results depend on the processing

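No paired analysis was possible because each antibody has 1 CLIP and 1 input list value per peak, and the merged list holds no replicate columns, so no replicate could be left out. Of 89 alternatives tried, 53 kept the value within the margin set for it. Those 53 include settings of the planned depletion rule, whose count of 0 could change only with centring. A reversal of direction was looked for only in the difference between H/ACA and C/D RNAs, and none was seen there. The 201 enriched sites (138 genes) became 111 (69) at a −log10 p of at least 5, 420 (239) at a log2 fold of at least 1, 104 (71) at a fold of at least 4 and 86 (56) after the list median was taken off each fold. By the deposited p the depleted count of 0 became 1 peak on 1 gene after centring. The 317 depleted peaks (200 genes) became 103 (77) at a fold of at most −2, 13 (13) at most −3, 1058 (527) after centring, 704 (415) without the interval, 120 (78) in protein-coding genes, 183 (114) with at least 10 CLIP reads and 146 (92) with at least 100 reads in all, all of them settings chosen after seeing the data. The coding share of enriched sites fell to 17.3% at a fold of at least 4. That of depleted peaks was 15.5% at most −2, 0.0% at most −3, 42.3% with adjacent peaks joined and 87.5% in protein-coding genes. The share of enriched sites enriched again in the rAb list was 30.3% with a reciprocal overlap of 50%, 50.5% at a −log10 p of at least 5, 54.5% at a fold of at least 1 and 28.8% at a fold of at least 4. That of depleted peaks was 17.4% with the reciprocal overlap. The share of genes with the higher intronic median was 93.9% with at least 5 peaks of each kind and 100% in the rAb list, where 24 genes entered. The causes were not tested. Of 57 named genes with an enriched site, 38 had one at a −log10 p of at least 5 and 29 after centring.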
